A study of Mus musculus with 28 samples.

Results

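The comparison is between young and old ovaries of C57BL/6 mice that ate freely (the ad libitum or AL diet). Arrays were chosen by their labels for organ, diet and age, which gave 8 of the 28 arrays of the series. The series also holds 6 ovaries of females under calorie restriction, of 6, 16 and 24 months. They are in neither group, but they entered the age regression and the version shift described below. The young group holds 4 ovaries, 2 of 1 month and 2 of 6 months, and the old group holds 4, 2 of 16 months and 2 of 24 months. Each array carried Cy3-labelled RNA of the whole ovary of 1 female beside a Cy5-labelled reference pooled from cultured mouse cell lines. A value is the log2 ratio of ovary to reference, and a change is the mean of the old ovaries minus the mean of the young ones. The label of 1 of the 1-month ovaries also states an age of 17 days, and those of 1 ovary each of 16 and 24 months state 15 and 23 months. First and second below follow the order of the arrays in the series. Both ovaries of 1 month and 1 ovary of every later age were on array version 2.1, and the others were on version 2.2. Version and day of image extraction cannot be told apart in these ovaries. As a check of the tissue, Amhr2, the granulosa receptor for anti-Müllerian hormone, stood between 3.80 and 4.83 on all 8 arrays. Its level in testis was not compared. The number of arrays limits the precision.

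In the ovary each oocyte sits in a follicle, surrounded by granulosa cells and, as the follicle grows, by theca cells. The stock of follicles is laid down around birth and is used up over life, while granulosa cells divide in growing follicles and turn into the corpus luteum after ovulation. Macrophages clear dying follicles and regressing corpora lutea, and macrophages, fused giant cells and lymphocytes are known to gather in the ovaries of old mice.

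Genes called lower in old ovaries included many of oocytes and of dividing cells, and genes called higher included some of macrophages, lymphocytes, complement and lysosomes. The oocyte growth factor Gdf9 was 14.6-fold lower and the macrophage membrane protein Gpnmb 16.6-fold higher. A gene or probe was called when limma gave a false discovery rate (FDR) of at most 0.1 over all features tested, the change was at least 1.5-fold, and age had a p under 0.05 when all 14 ovary arrays of both diets were regressed on age and diet. The 35303 features tested are 12461 genes named by accession or by study tables not picked by change with age, 2080 genes named only through the study's result tables, and 20762 single probes with no name. Of these features, 3297 (9.34%) were called, with 1480 (4.19%) higher and 1817 (5.15%) lower in old ovaries. Of the called features, 433 were higher and 409 lower by more than 2-fold, and 12 were higher and 50 lower by more than 4-fold. From the gonad channel alone, 1903 features were called higher and 998 lower. Of the 12461 genes, 12024 were named by accession and 437 by those study tables, though where a gene had several probes the authors kept the one with the most significant change. All 12461 are called independently named below, and 1489 (11.9%) of them were called, 484 (3.88%) higher and 1005 (8.07%) lower, with a median change of -0.09. Of those named by accession alone, 473 (3.93%) were higher and 958 (7.97%) lower. The result tables list genes for their values in these samples, and 30.1% of the 2080 genes named only through them were called. They are left out of the list counts that follow, where they make up 47 members, 9 called higher and 18 lower. The young and old values did not overlap in 10.6% of the independently named genes with old higher and in 24.2% with old lower. Without the first ovary of 24 months the count of higher features was 935. With the error variance that the study's methods describe, limma estimates left no feature called, while 2444 were higher and 4001 lower at an unadjusted p under 0.05. The methods do not state the degrees of freedom, and with those of the averaged variance, chosen after seeing the data, 1055 features were higher and 1516 lower.

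The calls followed the base content of the probes. Of the 2737 features whose 60-base probe has 20 to 34 C, 21.1% were called higher and 1.02% lower. Where the probe has at most 8 C, 1.34% of 4484 features were called higher and 7.58% lower. After the linear trend in the counts of A, C and G was taken off each array, an alternative chosen after seeing the data, 6.65% of the features with the most C were called higher and 3.75% of those with the fewest. Of the 484 independently named genes called higher, 286 were also called higher then, and of the 1005 called lower, 586 were also called lower. With the trend taken off, 2.92% of all independently named genes were called higher and 5.87% lower. These are the shares against which the list counts with the trend taken off stand. The part that probe bases play in the changes of single genes was not tested. Where the call of a gene described below ended with the trend taken off, its value is given, and where a list lost calls, the count that remained is given or the gene is named.

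**Figure D1:**
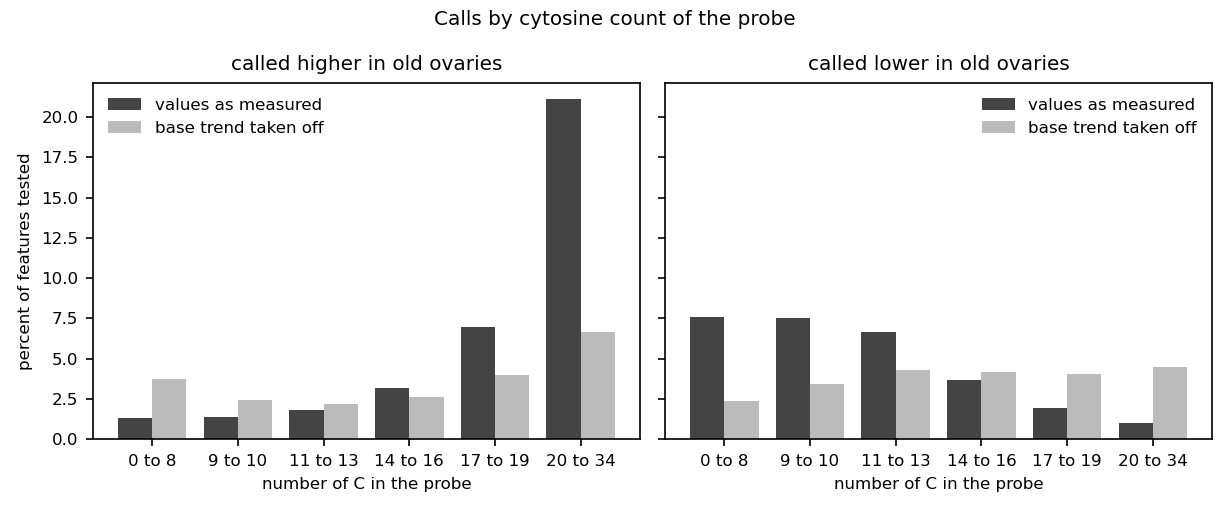
Percent of the features tested (vertical axis) that were called higher (left) or lower (right) in old AL ovaries, by the number of C in the probe (horizontal axis). Dark bars are the values as measured and light bars those with the linear trend in base counts taken off each array. The dark bars for higher features climb from 1.34% to 21.1%, while the light ones run from 2.15% to 6.65%.

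Genes of the zona pellucida, the coat of the oocyte, were lower in every old ovary. All 3 members were called lower. Zp2 stood at 3.33 and 3.24 at 1 month, 2.82 and 2.56 at 6 months, 0.90 and 0.02 at 16 months and 0.06 and 0.32 at 24 months. The second ovary of 16 months and both of 24 months lay near 0, the first of 16 months was somewhat higher, and no old value reached a young one. The change of Zp2 was -2.66 ± 0.24 (SE, limma adjusted p = 0.00354). Zp3, which encodes the protein that sperm bind, stood at 2.67 and 2.25 at 1 month, 1.84 and 1.43 at 6 months, 0.02 and -0.31 at 16 months and -0.47 and -0.28 at 24 months. Its values at 6 months were below those at 1 month, and the groups did not overlap. The change of Zp3 was -2.31 ± 0.25 (SE, limma adjusted p = 0.00415), and that of Zp1 was -1.01 ± 0.20 (SE, limma adjusted p = 0.011). A dimmer probe of Zp1 gave -0.23. Fewer oocytes and less RNA per oocyte cannot be told apart in RNA of whole ovaries, and the same holds for the other cell types below.

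Among oocyte growth factors and surface proteins, 4 of 9 independently named members were called lower and none higher, with a median change of -0.68. Gdf9, the growth factor through which the oocyte drives granulosa cells, stood at 6.38 and 6.16 at 1 month, 5.24 at 6 months, 3.66 and 1.31 at 16 months and 1.63 and 1.65 at 24 months. The spot of the second ovary of 6 months was left out, so that 3 young values remain. The 3 young values lay above 5 and the old ones below 4, with the first ovary of 16 months alone above 2. The change of Gdf9 was -3.86 ± 0.58 (SE, limma adjusted p = 0.00731). Bmp15, its partner in the oocyte, changed by -1.16 ± 0.29 (SE, limma adjusted p = 0.0243). Fgf8, another factor that oocytes release, had a change of -0.45, under 1.5-fold, and was not called.

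Of the oocyte transcription factors, a list with 69.2% of its members measured, 2 of 8 were called lower and none higher, with a median change of -0.04. Nobox, which primordial follicles need to grow, stood at 3.60 and 3.48 at 1 month, 2.55 and 2.56 at 6 months, 0.57 and 0.23 at 16 months and 0.27 and 0.26 at 24 months. All young values exceeded 2.5 and all old ones were under 0.6, a change of -2.71 ± 0.26 (SE, limma adjusted p = 0.00354). Figla, which switches on the zona genes, stood at 2.13 and 2.40 at 1 month, 0.90 and 1.05 at 6 months, 0.06 and 0.03 at 16 months and 1.04 and -0.12 at 24 months. Its old values were near 0 in 3 ovaries, and that of the first ovary of 24 months lay among those of 6 months, so the groups overlapped. On 1 of the 4 old arrays Figla was not above background, so its change is not exact. The change of Figla was -1.37 ± 0.40 (SE, limma adjusted p = 0.0386), and without the first ovary of 1 month it was -1.20 with an adjusted p of 0.101, past the threshold.

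Most maternal effect genes, whose products the oocyte stores for the embryo, were called lower. Of 13 members 10 were called lower and 1 higher, with a median change of -1.75. Dppa3 stood at 4.29 and 4.20 at 1 month, 3.68 and 3.85 at 6 months, 1.36 and 0.87 at 16 months and 1.37 and 1.21 at 24 months. Its young ovaries lay between 3.68 and 4.29 and its old ones between 0.87 and 1.37. The change of Dppa3, whose protein guards methylation in the early embryo, was -2.80 ± 0.16 (SE, limma adjusted p = 0.00335). Nlrp5 and Tle6 encode parts of the complex under the membrane of the egg. Nlrp5 changed by -2.59 ± 0.35 (SE, limma adjusted p = 0.00553), while a dimmer probe of it gave -0.20. Tle6 changed by -1.35 ± 0.15 (SE, limma adjusted p = 0.00435). The member called higher was Nlrp2, chosen here after its values were seen, with a change of 1.22 ± 0.25 (SE, limma adjusted p = 0.0123) on its brighter probe and -0.88 on the dimmer one.

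Of the oogenesins and other genes of the oocyte, 9 of 14 were called lower and none higher, with a median change of -1.74. Oog1 stood at 4.77 and 4.77 at 1 month, 2.98 and 2.76 at 6 months, 0.70 and 0.09 at 16 months and 0.15 and 0.37 at 24 months. It was highest in both ovaries of 1 month, lower in those of 6 months and near 0 in 3 of the 4 old ones. The change of Oog1 was -3.49 ± 0.49 (SE, limma adjusted p = 0.00557), or 11.3-fold lower. Oog4 changed by -3.28 ± 0.39 (SE, limma adjusted p = 0.00452). Tcl1, which activates the kinase AKT, changed by -2.89 ± 0.42 (SE, limma adjusted p = 0.00606). The mean of the list lay at -0.39 to 0.45 in the young ovaries and at -1.61 to -1.21 in the old ones, relative to the young mean.

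Of oocyte genes that bind RNA and control translation, a list with 75% of its members measured, 3 of 7 were called lower and 1 higher, with a median change of -0.57. Dazl, which promotes translation in germ cells, stood at 2.22 and 2.47 at 1 month, 1.11 and 1.36 at 6 months, 0.35 and 0.09 at 16 months and 0.09 and -0.11 at 24 months. No old value reached a young one, and the change was -1.69 ± 0.29 (SE, limma adjusted p = 0.00826). Ddx4, a helicase of the germ line, had a change of -0.38 and was not called, while a dimmer probe gave -0.89. Ybx2, a keeper of stored oocyte RNA, was the member called higher, with a change of 0.98 ± 0.23 (SE, limma adjusted p = 0.018). Its probe has 21 C, and with the base trend taken off the change was 0.57 and not called. Among genes of the meiotic chromosome axis and recombination, 2 of 18 were called lower, with a median change of -0.16. This is 11.1%, against 8.07% of all independently named genes. Syce2, part of the synaptonemal complex, changed by -1.30 ± 0.24 (SE, limma adjusted p = 0.0089). The axis gene Sycp3 was not above background on 1 of the 4 old arrays, so its change of -0.53, which was not called, is not exact.

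The promoters of Zp3, Nobox and Oog1 are shown because these 3 oocyte genes were called lower and because CANNTG is the motif of the factor family that FIGLA belongs to. Sequences were matched by symbol in a table of RefSeq promoters of GRCm38.p6, which has an entry for 78 of the 99 oocyte genes of the lists and none for Zp1, Zp2 and Gdf9. In the 250 bases before the start, CANNTG, which reads the same on both strands, occurred in 62 of the 78 (79.5%) and in 66.0% of 27025 promoters. Capitals mark each match, which is a description of letters only. The sequence before Zp3 is chr5:135979855-135980104 on the plus strand, that before Nobox is chr6:43309555-43309804 on the minus strand, and that before Oog1 is chr12:87602415-87602664 on the plus strand. They hold 3, 2 and 3 matches.
Zp3: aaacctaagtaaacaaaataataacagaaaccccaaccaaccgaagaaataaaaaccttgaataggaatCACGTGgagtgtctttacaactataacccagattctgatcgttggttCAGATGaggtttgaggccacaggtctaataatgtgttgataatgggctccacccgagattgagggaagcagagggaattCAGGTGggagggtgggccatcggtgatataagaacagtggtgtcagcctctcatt
Nobox: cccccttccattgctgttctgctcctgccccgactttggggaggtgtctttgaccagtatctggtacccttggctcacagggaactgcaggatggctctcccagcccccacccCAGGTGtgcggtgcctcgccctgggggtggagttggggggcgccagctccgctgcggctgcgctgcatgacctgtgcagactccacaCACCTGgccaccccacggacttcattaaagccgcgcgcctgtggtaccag
Oog1: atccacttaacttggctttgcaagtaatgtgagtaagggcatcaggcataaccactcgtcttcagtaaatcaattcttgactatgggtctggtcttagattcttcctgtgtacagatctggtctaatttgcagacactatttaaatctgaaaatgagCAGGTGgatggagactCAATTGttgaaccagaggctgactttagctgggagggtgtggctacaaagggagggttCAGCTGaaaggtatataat

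**Figure D2:**
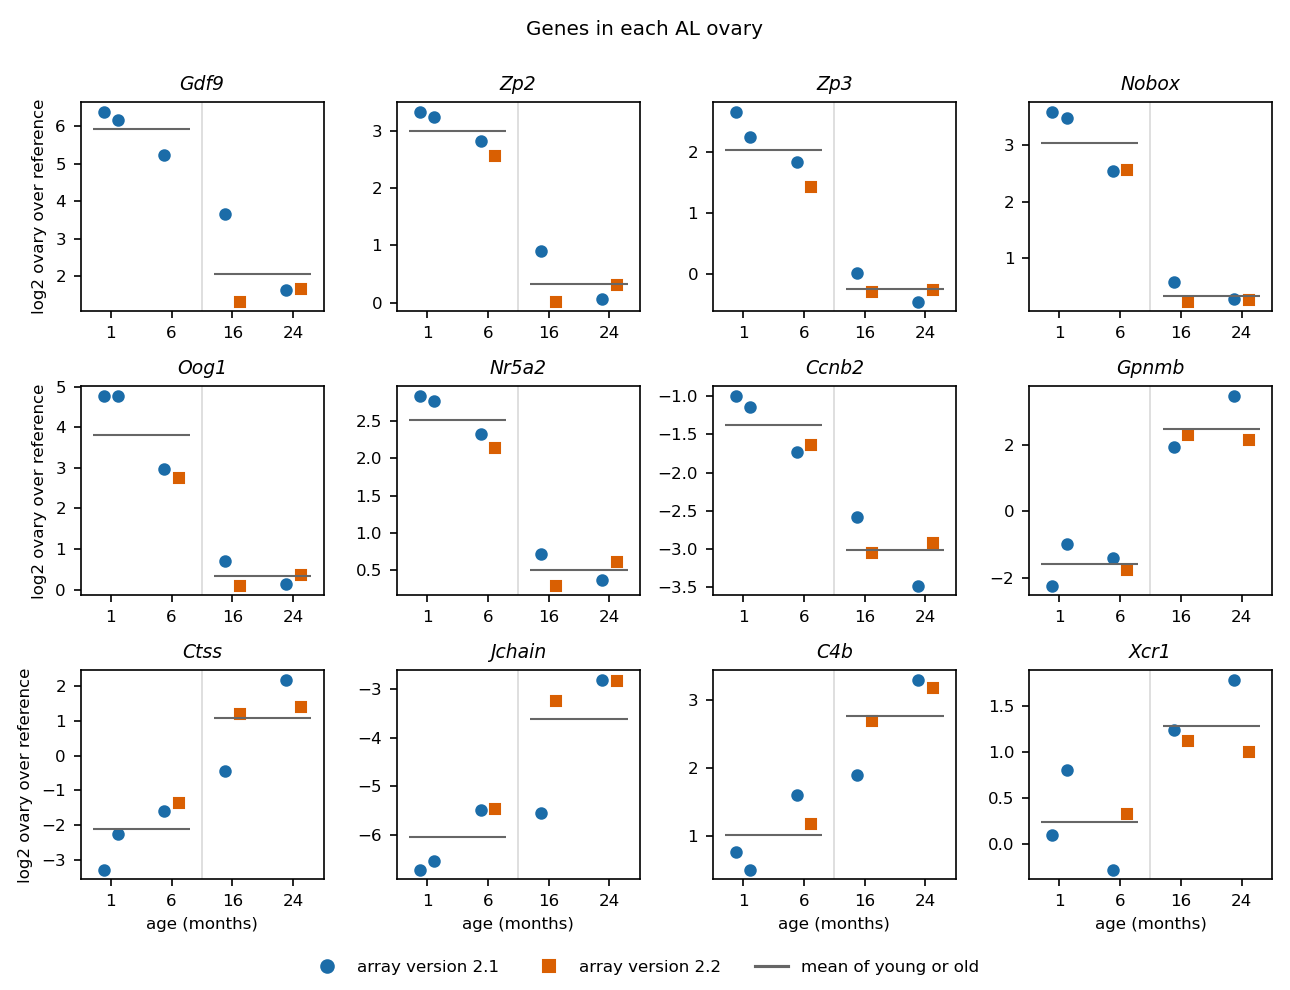
Log2 ratio of ovary to reference (vertical axis) by age in months (horizontal axis) for 12 genes, with 1 point for each AL ovary. Circles are arrays of version 2.1, squares are arrays of version 2.2, and lines are the means of the young and old ovaries. In Nobox, Zp3, Oog1, Nr5a2, Ccnb2 and Gpnmb no old value reaches a young one, while in Jchain the first ovary of 16 months lies among the young.

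In granulosa cells, 5 of 13 marker genes were called lower and none higher, with a median change of -0.44. Nr5a2, a nuclear receptor needed for ovulation, stood at 2.84 and 2.77 at 1 month, 2.33 and 2.13 at 6 months, 0.71 and 0.29 at 16 months and 0.37 and 0.61 at 24 months. The old values lay under 0.72 and the young ones above 2.1, a change of -2.02 ± 0.17 (SE, limma adjusted p = 0.00354). Inhbb, a subunit of inhibin and activin, stood at 5.20 and 4.69 at 1 month, 4.14 and 3.97 at 6 months, 4.09 and 1.55 at 16 months and 2.03 and 2.99 at 24 months. The first ovary of 16 months lay among the young ones, and the other old ovaries were lower. The change of Inhbb was -1.83 ± 0.54 (SE, limma adjusted p = 0.0399). Without the first ovary of 1 month it was -1.60 (limma adjusted p = 0.104), and without the first of 24 months -1.62 (limma adjusted p = 0.105), both past the threshold.

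Fst, which encodes the activin antagonist follistatin, showed the same split among old ovaries, at 3.13 and 2.73 at 1 month, 2.12 and 2.38 at 6 months, 2.31 and -0.05 at 16 months and 0.58 and 0.84 at 24 months. Its change was -1.67 ± 0.47 (SE, limma adjusted p = 0.0341). Esr2, the estrogen receptor of granulosa cells, was named through a result table and changed by -2.63 ± 0.33 (SE, limma adjusted p = 0.00486). Amh, the hormone of small growing follicles, changed by -0.60 ± 0.07 (SE, limma adjusted p = 0.00434), and its old values all lay below its young ones. A dimmer probe of Amh gave -0.37. Without the second ovary of 1 month, its change was -0.57, and without the first of 24 months -0.56, both under 1.5-fold. The receptor gene Fshr had a change of -0.44 and the transcription factor gene Foxl2 one of 0.28, and neither was called. A brighter probe of Foxl2, named through a result table, gave the opposite sign, at -0.39. The mean of the list, relative to the young mean, ran from -0.50 in the first ovary of 6 months to 0.33 in the young ovaries. It was -0.01 in the first ovary of 16 months and -0.73 to -0.89 in the other old ones, so the groups overlapped. In Inhbb and Fst, as in Gdf9 and Tcl1, the first ovary of 16 months was the old one closest to the young ones.

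Genes of theca cells and steroid synthesis had no member called among 9, and their median change was -0.05. Cyp17a1, the enzyme that makes androgens, stood at 4.85 and 4.64 at 1 month, 1.86 and 3.70 at 6 months, 3.49 and 3.87 at 16 months and 2.56 and 2.55 at 24 months, with a change of -0.64 ± 0.65 (SE, limma adjusted p = 0.524). The groups overlapped, and the first ovary of 6 months held the lowest value. Without that ovary Cyp17a1 was called lower, at -1.28. Star, which carries cholesterol into mitochondria, stood at 2.64 and 2.12 at 1 month, 4.78 and 4.09 at 6 months, 3.43 and 3.54 at 16 months and 3.52 and 3.41 at 24 months. It was low at 1 month and highest at 6 months, with the old ovaries between and a change of 0.07. Without the first ovary of 1 month the change of Star was -0.19, and without the second -0.36. Cyp11a1, which makes the first steroid from cholesterol, stood at 2.86 and 2.80 at 1 month, 4.21 and 4.25 at 6 months, 2.72 and 3.99 at 16 months and 3.29 and 3.91 at 24 months. Both ovaries of 1 month and the first of 16 months held the lowest values, and the change was -0.05 ± 0.43 (SE, limma adjusted p = 0.951). Its sign differed between the 8 fits that left out 1 array, up to 0.20 without the first ovary of 16 months. None of the 16 genes of ovulation and the corpus luteum was called either, with a median change of -0.07. Sfrp4, a secreted WNT inhibitor of luteal cells, stood at 0.42 and 0.56 at 1 month, 4.51 and 3.78 at 6 months, 1.86 and 4.63 at 16 months and 3.94 and 4.09 at 24 months. Akr1c18, which breaks down progesterone in the regressing corpus luteum, stood at 1.00 and 0.54 at 1 month, 4.50 and 4.27 at 6 months, 0.48 and 2.15 at 16 months and 0.88 and 2.87 at 24 months. The change was 1.31 in Sfrp4 and -0.98 in Akr1c18, and neither was called. Both were low in the ovaries of 1 month and high in those of 6 months, so the young group was not uniform, and the old ovaries spread over most of that range. Against the ovaries of 6 months alone the change of Sfrp4 was -0.52 and that of Star -0.96, and neither was called. Lhcgr, the receptor of luteinizing hormone, had a change of 0.64 and was not called, but without the first ovary of 16 months it was called higher, at 1.06. Of 10 genes of steroid hormone, growth hormone and IGF signalling none was called, with a median of -0.14.

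In the TGF-beta family, 3 of 15 ligands were called higher and none lower, with a median change of 0.11. Lefty1, an antagonist of nodal, changed by 0.63 ± 0.16 (SE, limma adjusted p = 0.0234), and without the second ovary of 1 month its change was 0.51, under 1.5-fold. Bmp4, a theca growth factor, changed by 0.62 ± 0.12 (SE, limma adjusted p = 0.0102). With the base trend taken off, the change of Bmp4 was 0.26 and not called. Its call also ended in 2 of the 8 fits that left out 1 array, at 0.53 to 0.56. Of the receptors and SMADs, a list with 76.2% of its members measured, 4 of 16 were called lower and none higher, with a median of -0.24. Smad4, the shared partner of the receptor-bound SMADs, stood at 1.63 and 1.75 at 1 month, 1.66 and 1.52 at 6 months, 0.72 and 0.86 at 16 months and 0.18 and 0.65 at 24 months. The old ovaries lay below the young ones, with the first of 24 months lowest, and the change was -1.04 ± 0.14 (SE, limma adjusted p = 0.00536). Bmpr2, a receptor for BMP15, changed by -0.89 ± 0.17 (SE, limma adjusted p = 0.0103), and its partner Bmpr1b by -1.15 ± 0.39 (SE, limma adjusted p = 0.0643). The call of Bmpr1b ended in 5 of the 8 fits that left out 1 array, at -1.16 to -0.86, and with array version as a block, at -1.06. A dimmer probe of Bmpr1b gave -1.43. Amhr2, the receptor of AMH, ranged from 4.55 to 4.83 in young and from 3.80 to 4.25 in old ovaries and changed by -0.72 ± 0.11 (SE, limma adjusted p = 0.00614). Its change with the base trend taken off was -0.52, under 1.5-fold. Of 8 inhibitors and targets none was called, with a median of -0.14. Chrd, the BMP antagonist chordin, had a change of 0.34, under 1.5-fold.

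Cell cycle genes drive and time division. Of 39 members 26 were called lower and none higher, with a median change of -1.03. Ccnb2, a cyclin of mitosis, stood at -0.99 and -1.14 at 1 month, -1.74 and -1.64 at 6 months, -2.59 and -3.05 at 16 months and -3.48 and -2.92 at 24 months. Its values were lower at 6 months than at 1 month and lower again in all old ovaries. The change of Ccnb2 was -1.63 ± 0.23 (SE, limma adjusted p = 0.00555), or 3.1-fold lower. Ccna2, a cyclin of DNA replication and mitosis, changed by -1.88 ± 0.32 (SE, limma adjusted p = 0.00805), and by -0.77 on a dimmer probe. Birc5, a protein of dividing chromosomes, changed by -1.83 ± 0.33 (SE, limma adjusted p = 0.00869). The mean of the list was -0.26 to 0.26 in young and -1.11 to -0.63 in old ovaries, relative to the young mean, with the first ovary of 16 months nearest to the young. With the base trend taken off, 24 of the 26 were also called lower. Of 14 CDK inhibitors and secreted senescence factors, 1 was called higher and none lower, with a median of 0.05. It was Cdkn1c, a CDK inhibitor, with a change of 1.13 ± 0.34 (SE, limma adjusted p = 0.0425) and a regression p of 0.0482. The call of Cdkn1c ended in 7 of the 8 fits that left out 1 array each, in which its change was 0.86 to 1.28, and held only without the first ovary of 16 months. It also ended with array version as a block, at 1.15.

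Promoters of Ccnb1, Ccnb2 and Top2a are shown because these 3 genes of dividing cells were called lower and CCAAT boxes are known from promoters of mitotic genes. On either strand, CCAAT occurred in the 250 bases before the start in 27 of 38 cell cycle genes found in the table (71.1%) and in 34.5% of all promoters. At least 2 matches occurred in 44.7% and 10.5%. The sequence before Ccnb1, another mitotic cyclin, is chr13:100786487-100786736 on the minus strand, that before Ccnb2 is chr9:70421555-70421804 on the minus strand, and that before Top2a, the DNA topoisomerase of dividing cells, is chr11:99024190-99024439 on the minus strand. They hold 2, 3 and 6 matches, in capitals as CCAAT or ATTGG. The change of Ccnb1 was -1.58 ± 0.32 (SE, limma adjusted p = 0.0119), with -0.39 on a dimmer probe named through a result table, and that of Top2a, named through a result table, was -1.93 ± 0.31 (SE, limma adjusted p = 0.00719).
Ccnb1: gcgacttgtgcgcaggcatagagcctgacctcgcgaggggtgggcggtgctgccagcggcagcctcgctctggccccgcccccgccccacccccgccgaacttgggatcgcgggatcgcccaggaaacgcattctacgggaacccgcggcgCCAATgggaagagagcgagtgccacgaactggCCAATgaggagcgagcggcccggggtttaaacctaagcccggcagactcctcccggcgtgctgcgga
Ccnb2: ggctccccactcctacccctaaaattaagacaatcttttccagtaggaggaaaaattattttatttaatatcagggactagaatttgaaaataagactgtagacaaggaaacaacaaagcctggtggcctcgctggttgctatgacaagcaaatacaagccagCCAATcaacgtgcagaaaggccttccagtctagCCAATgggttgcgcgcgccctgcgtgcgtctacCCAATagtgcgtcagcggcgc
Top2a: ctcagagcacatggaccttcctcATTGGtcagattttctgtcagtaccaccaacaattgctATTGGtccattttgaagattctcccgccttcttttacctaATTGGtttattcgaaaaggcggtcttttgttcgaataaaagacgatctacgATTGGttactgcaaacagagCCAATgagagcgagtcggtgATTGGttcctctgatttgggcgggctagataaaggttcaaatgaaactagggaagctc

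DNA repair genes followed in part. Of 32 members 10 were called lower and none higher, with a median change of -0.43. Parp1, a sensor of DNA breaks, stood at 1.02 and 0.52 at 1 month, 0.84 and 0.78 at 6 months, 0.05 and 0.12 at 16 months and -0.41 and 0.08 at 24 months. The old values lay below the young ones, and the first ovary of 24 months was the lowest. The change of Parp1 was -0.84 ± 0.14 (SE, limma adjusted p = 0.00819). The nuclease gene Exo1 changed by -1.12 ± 0.28 (SE, limma adjusted p = 0.0242). Brca1, a defining member of the list, went the other way. Its change was 0.37, with every old value above every young one, but it was under 1.5-fold and not called. Of the 22 uncalled members 6 rose and 16 fell. With the base trend taken off, 3 of the 10 calls remained, those of Parp1 and Exo1 among them, and the median was -0.38.

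Proteasome subunits degrade marked proteins. Of 28 members 12 were called lower and none higher, with a median change of -0.54. Old values lay below all young ones in 23 of the 28, against 24.2% of all independently named genes. Psma4 stood at -0.50 and -0.47 at 1 month, -0.40 and -0.58 at 6 months, -1.36 and -1.09 at 16 months and -1.21 and -1.18 at 24 months. Its young values lay within 0.20 of each other and its old ones below -1, and the change was -0.72 ± 0.07 (SE, limma adjusted p = 0.00409). Psmb3 changed by -0.72 ± 0.15 (SE, limma adjusted p = 0.0139), and Psma1 by -0.68 ± 0.12 (SE, limma adjusted p = 0.00844). The call of Psma1 ended with the base trend taken off, at -0.54. With the base trend taken off, 3 of the 12 were also called lower, and the median was -0.41. Of 13 citric acid cycle genes 2 were called lower, with a median of -0.36, and 0 remained so with the trend taken off. Pdhb, a subunit of pyruvate dehydrogenase, changed by -0.83 ± 0.11 (SE, limma adjusted p = 0.00535), and by -0.64 with the trend taken off. Its dimmer probes gave -0.94 and -0.19. Of 22 genes of oxidative defence 1 was called lower (4.55%, against 8.07% of all independently named genes), with a median of -0.08. It was the peroxiredoxin gene Prdx4, with a change of -0.90 ± 0.14 (SE, limma adjusted p = 0.00634).

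The mean of the macrophage list overlapped between young and old ovaries. Of 12 markers 2 were called higher (16.7%, against 3.88% of all independently named genes) and none lower, with a median change of 0.27. Lyz2, the lysozyme of macrophages, stood at 0.59 and 1.39 at 1 month, 1.90 and 1.80 at 6 months, 2.72 and 4.06 at 16 months and 3.90 and 4.00 at 24 months. All old values exceeded the young ones, and the first ovary of 16 months was the lowest of the old. The change of Lyz2 was 2.25 ± 0.38 (SE, limma adjusted p = 0.00754), or 4.75-fold higher. Its regression p was 0.0446, and the call ended in all 8 fits that left out 1 array, in which the change was 1.97 to 2.57, with array version as a block, at 2.09, and with the base trend taken off, at 2.099. Cd5l, a secreted macrophage protein, stood at -0.07 and -0.21 at 1 month, 0.50 and 0.60 at 6 months, 2.67 and 0.61 at 16 months and 2.87 and 2.77 at 24 months. It was high in 3 old ovaries, while the second of 16 months lay just above the highest young one. The change of Cd5l was 2.02 ± 0.49 (SE, limma adjusted p = 0.0213), and its call ended in 4 of the 8 fits, at 1.81 to 1.93. Adgre1, which encodes the macrophage antigen F4/80, had a change of 0.49 and was not called, but without the first ovary of 16 months it was called higher, at 0.69. Cd68, of macrophage endosomes, was named through a result table, had a change of 1.13 and a regression p of 0.0744, and was not called. Csf1r, the receptor of macrophage colony-stimulating factor, was named through a result table and changed by 1.01 ± 0.25 (SE, limma adjusted p = 0.0233).

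Among genes of multinucleated giant cells and osteoclasts, 4 of 15 were called higher and none lower, with a median change of 0.38. Gpnmb stood at -2.24 and -0.97 at 1 month, -1.41 and -1.77 at 6 months, 1.94 and 2.29 at 16 months and 3.46 and 2.14 at 24 months. The young values lay below -0.9 and the old ones above 1.9, so the groups were far apart. The change of Gpnmb was 4.06 ± 0.37 (SE, limma adjusted p = 0.00354), the largest rise of a named gene. Trem2, a receptor for lipids on macrophages, stood at -2.05 and -1.90 at 1 month, -0.66 and -1.19 at 6 months, 0.50 and 1.03 at 16 months and 1.60 and 0.90 at 24 months. Its old values all exceeded its young ones, and the change was 2.46 ± 0.34 (SE, limma adjusted p = 0.00555). Both calls ended in all 8 fits that left out 1 array, through the regression, with adjusted p of at most 0.02 and changes of 3.72 to 4.27 for Gpnmb and 2.26 to 2.72 for Trem2. With array version as a block the call of Trem2 also ended, at 2.43. Acp5, an acid phosphatase of osteoclasts, stood at 0.05 and 0.24 at 1 month, 0.50 and 0.47 at 6 months, 0.28 and 2.38 at 16 months and 2.28 and 2.30 at 24 months. It was high in 3 old ovaries and at the young level in the first of 16 months. The change of Acp5 was 1.49 ± 0.45 (SE, limma adjusted p = 0.0428), and its call ended in 4 of the 8 fits, at 1.30 to 1.41. Atp6v0d2, a subunit of the proton pump, had a change of 2.25 and a regression p of 0.0845, and was not called. Ctsk, a defining member of the list, had a change of 0.27 with overlapping groups, and Car2 one of -0.70. Neither was called. Of the 11 uncalled members 9 rose and 2 fell. Of the 4 higher members, 3 were also called with the base trend taken off. The mean of the list was -0.22 to 0.28 in young and 0.45 to 1.15 in old ovaries.

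B and plasma cell genes had 4 of 12 members called higher and 1 lower, with a median change of 0.46. Jchain, the joining chain of secreted antibodies, was named through a result table and stood at -6.72 and -6.52 at 1 month, -5.48 and -5.46 at 6 months, -5.54 and -3.25 at 16 months and -2.81 and -2.83 at 24 months. The first ovary of 16 months lay among the young ones, and the other old ovaries were higher by more than 2. The change of Jchain was 2.44 ± 0.63 (SE, limma adjusted p = 0.0254). Cd79b, part of the B cell receptor, changed by 1.79 ± 0.59 (SE, limma adjusted p = 0.0597), and its call ended in 4 of the 8 fits that left out 1 array, at 1.67 to 1.77, and with array version as a block, at 1.70. The member called lower was Derl3, with a change of -2.04 ± 0.30 (SE, limma adjusted p = 0.00618), while its other probe gave 0.03. Its call ended in 3 of those fits, at -2.06 to -1.88. Of the 4 higher members, 3 kept the call with the base trend taken off.

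Of T and NK cell genes, 7 of 23 were called higher and none lower, with a median change of 0.27. Cd3e, a chain of the T cell receptor complex, stood at -0.12 and 0.36 at 1 month, -0.01 and 0.12 at 6 months, 0.92 and 0.79 at 16 months and 1.31 and 0.67 at 24 months. The old values exceeded the young ones, with the first ovary of 24 months highest. The change of Cd3e was 0.83 ± 0.15 (SE, limma adjusted p = 0.00923). Its probe has 19 C, and with the base trend taken off the change was 0.69 and the call held. Its partners Cd3d and Cd3g changed by 1.04 ± 0.38 (SE, limma adjusted p = 0.0821) and 0.78 ± 0.28 (SE, limma adjusted p = 0.0769). In the first ovary of 16 months Cd3d, at -0.10, lay among its young values, while Cd3g, at -0.61, lay above its own. Without the first ovary of 24 months the changes of Cd3d and Cd3g were 0.68 and 0.49. Their calls ended in 7 and 5 of the 8 fits that left out 1 array, at 0.68 to 1.16 and 0.49 to 0.86. With array version as a block both calls ended, at 1.03 and 0.82. With the base trend taken off, 3 of the 7 were called higher, these 3 genes. The mean of the list was -0.10 to 0.08 in young ovaries, 0.72 in the first of 24 months and 0.17 to 0.40 in the other old ones.

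Mast cell genes had 2 of 10 members called higher and none lower, with a median of 0.15. Cma1, a chymase of mast cell granules, stood at 0.12 and -0.01 at 1 month, 0.71 and 0.38 at 6 months, 1.16 and 0.87 at 16 months and 1.40 and 1.38 at 24 months. The old ovaries lay above the young ones, and the change was 0.90 ± 0.18 (SE, limma adjusted p = 0.0106). Cpa3, a carboxypeptidase of the granules, changed by 0.70 ± 0.22 (SE, limma adjusted p = 0.0471), and its call ended in 4 of the 8 fits that left out 1 array, at 0.52 to 0.70. Slc18a2, the amine transporter of the granules, was named through a result table and was called lower, with a change of -1.79 ± 0.59 (SE, limma adjusted p = 0.0591). Its call ended in 5 of those fits, at -1.74 to -1.33. Of 8 neutrophil genes 1 was called higher, with a median of 0.04. It was S100a9, part of calprotectin, with a change of 0.80 ± 0.12 (SE, limma adjusted p = 0.00639) on its brighter probe and -0.58 on the other. S100a8, the other part, had a change of 0.07 and was not called. Without the first ovary of 1 month it was -0.037, and without the first of 24 months -0.067.

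Chemokine ligands, which draw leukocytes, had 9 of 27 members called higher and 1 lower, with a median change of 0.29. Ccl5, a ligand for T cells and macrophages, stood at -2.57 and -2.87 at 1 month, -2.33 and -1.84 at 6 months, -1.60 and -1.22 at 16 months and 1.11 and -0.54 at 24 months. It was highest in the ovaries of 24 months, the first above all, and the groups did not overlap. The change of Ccl5 was 1.84 ± 0.55 (SE, limma adjusted p = 0.0412). Ccl19, a ligand of the lymph node, changed by 1.19 ± 0.27 (SE, limma adjusted p = 0.0159), and its dimmer probes gave 0.67 and 0.34. Cxcl14 was the member called lower, with a change of -1.10 ± 0.19 (SE, limma adjusted p = 0.00805). The call held in 7 of the 9 higher ligands with the base trend taken off. Of the receptors, 3 of 15 were called higher and none lower, with a median of 0.20. Xcr1, the receptor of cross-presenting dendritic cells, stood at 0.10 and 0.80 at 1 month, -0.29 and 0.33 at 6 months, 1.23 and 1.12 at 16 months and 1.78 and 1.00 at 24 months. The old ovaries lay above the young ones by as little as 0.20, and the change was 1.05 ± 0.25 (SE, limma adjusted p = 0.0187). The probe of Xcr1 has 18 C, and with the base trend taken off the change was 0.79 and the call held. Cxcr6, a receptor of T and NK cells, changed by 0.82 ± 0.14 (SE, limma adjusted p = 0.00805). The receptor calls held in 2 of the 3 with the base trend taken off.

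Complement genes had 4 of 20 members called higher and none lower, with a median of 0.14. C4b, of the classical pathway, stood at 0.76 and 0.49 at 1 month, 1.61 and 1.17 at 6 months, 1.90 and 2.70 at 16 months and 3.30 and 3.18 at 24 months. Values were higher at each later age, and all old ones exceeded the young. The change of C4b was 1.76 ± 0.34 (SE, limma adjusted p = 0.0106), or 3.39-fold higher. C3, on which the pathways meet, stood at -1.54 and -1.75 at 1 month, -0.65 and -1.71 at 6 months, -0.81 and 0.08 at 16 months and 1.49 and 1.13 at 24 months. The first ovary of 16 months lay below the highest young one, and the ovaries of 24 months were highest. The change of C3 was 1.89 ± 0.50 (SE, limma adjusted p = 0.0279). C1qa, which starts the classical pathway, had no value in the first ovary of 6 months and changed by 0.61 ± 0.14 (SE, limma adjusted p = 0.0185). Its call ended in 2 of the 8 fits that left out 1 array, at 0.48 to 0.55, and with the base trend taken off, at 0.52. Of all 26 alternatives with a value for C1qa, 16 called it, and its change ran from 0.34 to 1.93. Of 25 genes of the interferon response and MHC class I, 1 was called higher, with a median of 0.23. This is 4.0%, near the 3.88% of all independently named genes. The called member was Irf8, a regulator of myeloid cells, with a change of 1.03 ± 0.38 (SE, limma adjusted p = 0.0843). Its call ended in 5 of those fits, at 0.74 to 1.03, and with array version as a block, at 0.91. A dimmer probe of Irf8 gave 0.15.

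Lysosome genes had 5 of 36 members called higher and none lower, with a median of 0.12. Ctss, a protease of antigen-presenting cells, stood at -3.27 and -2.24 at 1 month, -1.59 and -1.34 at 6 months, -0.45 and 1.18 at 16 months and 2.16 and 1.39 at 24 months. It was higher at 6 months than at 1 month, and the first ovary of 16 months lay between the young and the other old ones. The change of Ctss was 3.18 ± 0.60 (SE, limma adjusted p = 0.0095), or 9.09-fold higher. Ctsd, an aspartic protease, changed by 1.64 ± 0.29 (SE, limma adjusted p = 0.00841), and Ctsz, a carboxypeptidase, by 1.31 ± 0.25 (SE, limma adjusted p = 0.00991). Of the genes of lipid uptake, storage and efflux, 4 of 14 were called higher and none lower, with a median of 0.41. Pla2g7, a phospholipase that macrophages secrete, stood at -2.31 and -2.05 at 1 month, -0.99 and -1.49 at 6 months, 0.48 and 0.98 at 16 months and 1.67 and 0.66 at 24 months. The old values all exceeded 0.4 and the young ones were below -0.9. The change of Pla2g7 was 2.66 ± 0.34 (SE, limma adjusted p = 0.00508), and a dimmer probe gave 0.40. Abcg1, a cholesterol exporter, changed by 1.06 ± 0.32 (SE, limma adjusted p = 0.0451), and its call ended in 3 of the 8 fits that left out 1 array, at 0.89 to 0.95. Fabp5, a carrier of fatty acids, had a change of 1.91 and a regression p of 0.0809, and was not called. In cholesterol synthesis, a list with 76.2% of its members measured, 1 of 15 was called higher (6.67%, against 3.88% of all independently named genes). None was called lower, the median was -0.24, and 0 remained called higher with the base trend taken off.

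Collagens and matrix proteins, a list with 77.8% of its members measured, had 3 of 19 called lower and none higher, with a median change of -0.44. Col1a2, a chain of the main fibrillar collagen, stood at 0.73 and 0.04 at 1 month, 0.20 and -0.04 at 6 months, -0.88 and -0.64 at 16 months and -1.19 and -0.84 at 24 months. No old value reached a young one, and the change was -1.12 ± 0.18 (SE, limma adjusted p = 0.00708). Col1a1, its partner chain, had a change of -1.31 and a regression p of 0.113, and was not called. Col4a1, of basement membranes, changed by -1.05 ± 0.14 (SE, limma adjusted p = 0.00555). Of the 3 lower members, 2 were also called with the base trend taken off, and the median was then -0.21. Among matrix proteases and inhibitors, 2 of 14 were called lower and none higher, with a median of -0.10. Mmp11, a metalloprotease, changed by -1.10 ± 0.16 (SE, limma adjusted p = 0.00618), and a dimmer probe of it gave -0.12. Of 18 WNT signalling genes, a list with 75% measured, 2 were called higher and 1 lower, with a median of 0.02. The agonist Rspo2 changed by -1.17 ± 0.29 (SE, limma adjusted p = 0.0233) and the ligand Wnt2b by 0.80 ± 0.16 (SE, limma adjusted p = 0.0113). The change of Wnt2b was 0.68 without the first ovary of 24 months and 0.72 without the second of 1 month, where its call ended.

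Markers of other cells in or near the ovary were mostly uncalled. Of 15 genes of blood and lymphatic endothelium none was called, with a median change of 0.10. Vwf, which encodes von Willebrand factor of endothelium and was named through a result table, was called higher, with a change of 0.63 ± 0.12 (SE, limma adjusted p = 0.0108). Its call ended in 3 of the 8 fits that left out 1 array, at 0.55 to 0.58, and with the base trend taken off, at 0.28. None of 9 smooth muscle and pericyte genes was called either, with a median of -0.49, and their mean, relative to the young mean, ranged from -0.90 in the first ovary of 16 months to 0.61 in the first of 6 months. Of 8 genes of the ovarian surface epithelium 1 was called higher, with a median of 0.09. It was Krt7, a keratin, with a change of 0.71 ± 0.17 (SE, limma adjusted p = 0.0186), or 0.48 and uncalled with the base trend taken off. Without the first ovary of 24 months its change was 0.58, under 1.5-fold. None of 9 fat cell genes was called, with a median of -0.09, and their mean ran from -0.88 in the first ovary of 16 months to 0.68 in the first of 24 months. The study describes cutting away the fat next to the ovaries, with a later check by histology. The oviduct list has 50% and the list of red cells and platelets 42.9% of its members measured. No member of either was called, with medians of -0.47 and 0.02. The part of these cells in the changes was not tested.

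**Figure D3:**
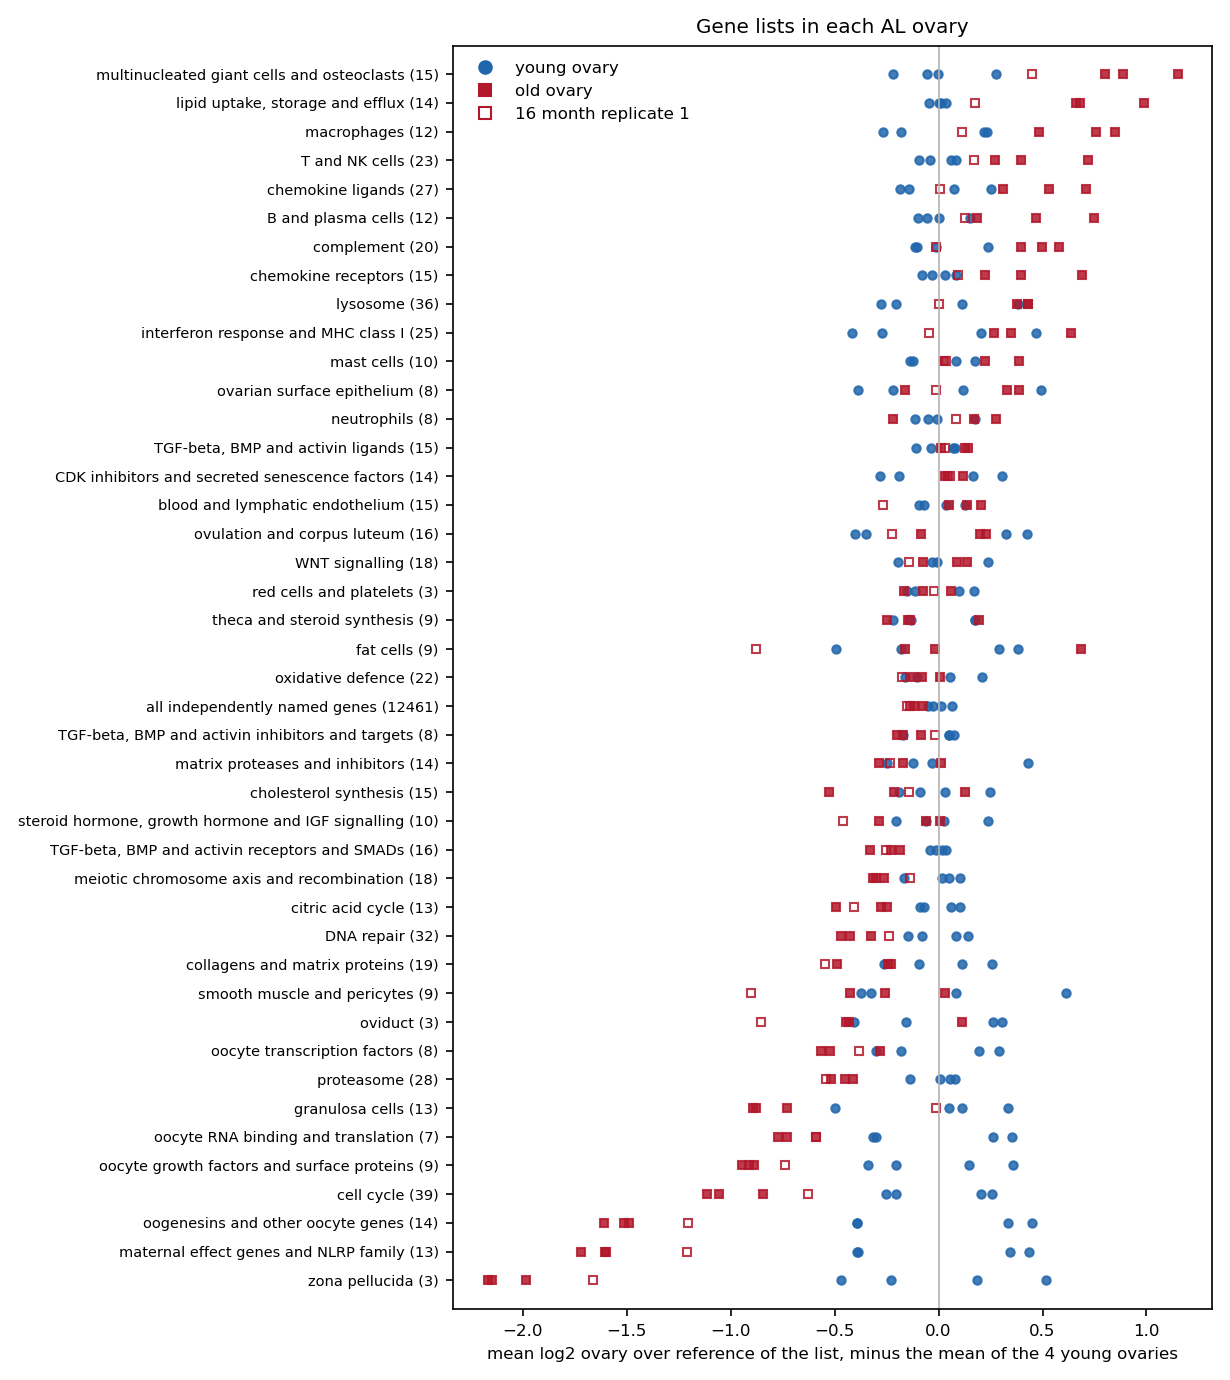
Mean log2 ratio of each gene list in each AL ovary, minus the mean of the 4 young ovaries (horizontal axis), with the number of independently named members in parentheses (vertical axis, ordered by the mean of the old ovaries). Blue circles are young ovaries, red squares are old ones, and the open square is the first ovary of 16 months. The zona pellucida list lies between -2.17 and -1.66 in old ovaries and that of giant cells between 0.45 and 1.15.

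Steps between neighbouring ages are given as a description only, since the genes were called by a contrast that holds the step from 6 to 16 months and so favours it. Of 989 independently named genes called lower with a value on all 8 arrays, 613 fell by at least 1.5-fold between the means of these ages, 211 did so between 1 and 6 months and 20 between 16 and 24 months. Of 475 such genes called higher, 311 were higher by at least 1.5-fold at 16 than at 6 months, 72 at 6 than at 1 month, and 82 at 24 than at 16 months. In the lower genes, the young ovary nearest to the old ones was the second of 6 months in 50.8% of genes, and the old ovary nearest to the young ones was the first of 16 months in 47.4%. In the higher genes, the nearest young ovary was the second of 1 month in 66.1%. The nearest old ovary was then the second of 16 months in 49.3%, the first of 16 months in 37.1%, and the first of 24 months in 0.632%.

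Some large changes lay outside the lists. Slc38a5, an amino acid transporter, stood at 5.95 and 5.92 at 1 month, 5.20 and 4.74 at 6 months, 3.97 and 1.38 at 16 months and 1.51 and 2.41 at 24 months. The first ovary of 16 months kept a value between the young and the other old ovaries, and the change was -3.13 ± 0.57 (SE, limma adjusted p = 0.00892). Cables1, which binds cyclin-dependent kinases, changed by -2.97 ± 0.28 (SE, limma adjusted p = 0.00354). Mycl, a relative of MYC, changed by -2.72 ± 0.56 (SE, limma adjusted p = 0.0123). On the side of the rises, Lgals3, a lectin of macrophages, stood at -3.21 and -2.40 at 1 month, -0.89 and -1.43 at 6 months, -0.94 and 0.14 at 16 months and 0.90 and 0.10 at 24 months. The first ovary of 16 months lay just below the highest young one, and the other old ovaries were above all the young. The change of Lgals3 was 2.03 ± 0.55 (SE, limma adjusted p = 0.0297), and its call ended in all 8 fits that left out 1 array, through the regression, at 1.63 to 2.40, and with array version as a block, at 1.94. Cd53, a membrane protein of leukocytes, changed by 2.07 ± 0.44 (SE, limma adjusted p = 0.0137). Ltb, the lymphotoxin of lymphocytes, changed by 1.91 ± 0.50 (SE, limma adjusted p = 0.0277).

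The change in the ovary was set against that in the testis of AL males of the same ages, with 8 arrays for each organ, by the limma interaction of organ and age class. It differed in 4243 of 35263 features tested, unnamed probes included (12%), at an FDR of at most 0.1 and 1.5-fold, and in 1907 of 12443 independently named genes (15.3%). In 1646 of the 4243 the ovary change was the more positive, and in 2597 the more negative. This balance depended on the signal, with 2437 and 1589 from the gonad channel alone, 2860 and 3085 from signals of the scanner software, and 930 and 1048 with no background correction. Gpnmb changed by 0.31 in testis, and the difference was 3.75 ± 0.47 (SE, limma adjusted p = 0.000429). Oog1 changed by -0.10 in testis, a difference of -3.40 ± 0.52 (SE, limma adjusted p = 0.000902). The difference was called for 3 of 3 zona genes, 12 of 13 maternal effect genes, 26 of 39 cell cycle genes, 12 of 28 proteasome genes and 10 of 27 chemokine ligands. The median testis changes of these lists were -0.04, 0.00, 0.01, 0.01 and 0.06. Dazl, a gene of germ cells of both sexes, changed by -0.07 in testis, a difference of -1.62 ± 0.32 (SE, limma adjusted p = 0.0031). The change correlated with the number of C in the probe at 0.33 in ovary and at -0.21 in testis. With the base trend taken off, 3051 features differed.

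Other named genes also had a second probe. Dimmer probes gave 0.02 in Adgre1, -1.20 in Akr1c18, 2.14 in Atp6v0d2, -1.45 in Ccnb2, 1.18 in Cd79b, 0.14 in Chrd, -0.42 in Cyp17a1 and 1.87 in Fabp5. They gave 0.94 in Krt7, 1.38 and 1.82 in Lyz2, -2.32 in Mycl, -0.91 in Psma1, 0.04 in S100a8, 1.98 in Trem2 and 0.57 in Wnt2b. Brighter probes named through a result table gave 0.98 in Cd3d, 1.11 in Cd3g, -1.58 in Fst and -3.77 in Oog1. All of these had the sign of the probe used. Over all named genes, 2730 had more than 1 probe, and in 120 of them probes moved in opposite directions at p under 0.05.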

How the data were processed

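RNA of whole ovaries was measured on Agilent arrays against a reference. Per the file headers, the deposited scanner files hold the spot and background intensities of both dyes from Feature Extraction A.7.5.1. The authors' deposited value tables hold log10 signals normalized in a way the labels do not state. With limma 3.58.1 in R 4.3.3, background was corrected by normexp (offset 50), ratios were loess-normalized, control and marked spots were dropped, and spots of a sequence were averaged. Version 2.1 values were shifted by the median version difference over 6 ovary groups of both diets, which the fit treats as known. A feature tested is a gene by its brightest independently named probe (12461), a gene named only by result tables (2080) or a single unnamed probe (20762), with at least 2 values per age class. Python 3.11.15 (pandas 2.3.3, numpy 2.4.6) handled the tables.

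Names came from accessions and, for 437 genes, from supplementary tables of the study not picked by change with age. Genes named in the text are some of those a rule allows, which are the largest called changes, called members and defining members of 42 gene lists, uncalled members with the largest changes, and the largest organ differences, with Nlrp2 as the exception. Members and lists were chosen with earlier results of these data known. The procedure was checked on simulated data. Alternatives changed the signal, background, normalization, filter, error variance, probe, version, day, regression, design, young group and each ovary.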

Additional observations from a re-analysis of the deposited data

Results flagged for a closer look

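In 14 genes 1 ovary stood far from the other 3 of its age class by Dixon's test, which chance meets in about 1 in 20 groups and which 14 of 202 groups met. Among the old ovaries the first of 16 months stood apart in 9 genes, with log2 ratios of 3.66 in Gdf9, 0.57 in Nobox, 1.48 in Tcl1, 2.72 in Lyz2, 0.28 in Acp5, 1.17 in Atp6v0d2, -5.54 in Jchain, -2.68 in Mycl and 0.90 in Slc18a2. In each of these genes it was the old ovary nearest to the young ones. The first ovary of 24 months stood apart in Figla at 1.04, in Cd3g at 0.56 and in Parp1 at -0.41. The second ovary of 16 months was low in Cd5l, at 0.61, and among the young ovaries the second of 6 months was high in Foxl2, at -0.23.

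The change with age differed between ovary and testis in 4243 of 35263 features, genes and unnamed probes, by the limma interaction test. Large differences, ovary change minus testis change, included 3.75 in Gpnmb, -3.40 in Oog1, -3.16 in Oog4, -2.97 in Nlrp5 and -2.97 in Slc38a5.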

How the results depend on the processing

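Counts are of features, genes and unnamed probes together. The count of higher features, 1480 as reported, was 2322 from signals processed by the scanner software, 866 with no background correction and 34 with only version 2.2 arrays, of which 1 is young. The count of lower features, 1817 as reported, was 998 from the gonad channel alone, 615 with no background correction and 222 with only version 2.2 arrays. With the error variance of the methods limma called 0 features in either direction, while 2444 were higher and 4001 lower at an unadjusted p under 0.05. With the degrees of freedom of the averaged variance, chosen after seeing the data, the counts were 1055 and 1516. The organ difference, 4243 as reported, was 1978 with no background correction. The organ difference was not fitted with other error variances, probes, versions, days, regression or design. The other alternatives that were run for a count, ovaries left out singly aside, kept it within 1.5-fold, with 1095 higher, 1368 lower and 3051 differing once the base trend, also chosen after seeing the data, was taken off. Leaving out 1 ovary at a time gave 935 (without the first of 24 months) to 1709 higher features, 1318 to 2129 lower features and 3405 to 4730 organ differences.

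Brca1, Car2 and Ctsk were not followed under alternatives, in Dixon's test or on second probes. Of 2734 values of the other 102 named genes under alternatives, 2261 kept their sign and their side of the threshold. A further 433 kept the sign and lost the call, 14 gained a call and 26 changed sign. The sizes of some called changes also moved widely. Over the alternatives the change ran from -2.38 to -0.60 in Nr5a2, -3.85 to -1.78 in Oog1 and -2.88 to -1.15 in Nobox. It ran from -2.86 to -0.91 in Zp3, -3.08 to -1.46 in Dppa3 and -2.11 to -0.60 in Dazl. Cyp11a1 was 0.18 with scanner signals and with the deposited tables, 0.43 in the gonad channel and 0.16 with no background correction, and -0.29 to 0.20 with 1 ovary left out. Star was -0.030 with version as a block, -0.62 on version 2.2, -0.96 against 6-month ovaries and -0.19 without the ovary of 17 days, and -0.36 to 0.52 with 1 ovary left out. S100a8 was -0.0012 with no background correction, -0.022 with no version adjustment, -0.027 on version 2.2, -0.0068 with day as a random block, -0.14 against 6-month ovaries and -0.037 without the ovary of 17 days, and -0.067 to 0.23 with 1 ovary left out. Against 6-month ovaries Cyp17a1 was 0.34 and Sfrp4 -0.52. Foxl2 was -0.067 on version 2.2, and Nlrp2 was -0.88 on its probe with the lowest p, the only one of these sign changes in a called gene. With array version as a block the calls of 9 named genes ended, those of Bmpr1b, Cd3d, Cd3g, Cd79b, Cdkn1c, Irf8, Lgals3, Lyz2 and Trem2. Some other alternatives ended more calls of named genes, 27 with no background correction, 25 against 6-month ovaries and 42 with only version 2.1 arrays. The causes were not tested.

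No paired analysis of single ovaries was possible because the young and old ovaries came from different females. As blocks, array version gave 1447 higher and 1761 lower features and day of extraction 1574 and 1906. Both blocks split the ovaries in the same way, so they are not separate checks. Version was a fixed term, and day was a random block with a correlation of 0.0336. With no version adjustment the counts were 1583 and 1938. The deposited tables lack some of the named genes. Median Cy3 signal was 1.33 to 1.46 times its background on the 8 arrays, which limits values of dim probes. With 2 ovaries per age, differences between neighbouring ages were not tested.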
